A study of Mus musculus with 2 samples.

Results

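The p53 genes described here are Trp53, which encodes the transcription factor p53, and 9 genes that p53 activates: Mdm2, Cdkn1a, Ccng1, Trp53inp1, Bbc3, Pmaip1, Bax, Phlda3 and Zmat3. They were found by symbol, and all 10 were among the 32285 genes listed for both libraries. In mouse gastruloids, aggregates of embryonic stem cells that begin to form a body axis in culture, cells of the R1 line were either wild type or carried a double knockout of Sp5 and Sp8, transcription factor genes that respond to Wnt signalling. About 300 cells per aggregate were grown in serum-free N2B27 medium and both genotypes received the Wnt pathway activator CHIR, which blocks GSK3, at 3 µM from day 2 and were collected 12 hours later, at day 2.5. The aggregates of a genotype were pooled into 1 single-cell 3′ RNA library, so each group was 1 library and no difference between them could be tested.

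p53 is kept low in unstressed cells because Mdm2, itself a p53 target, marks the p53 protein for destruction. When DNA damage or another stress stabilises p53, it binds decamer pairs near its targets and raises genes of cell cycle arrest, such as Cdkn1a, and genes of cell death, such as Bbc3, Pmaip1 and Bax. Embryonic stem cells are known to hold much p53 protein. Transcripts were measured here, not p53 protein or its binding.

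Cells were the barcodes with at least 2500 unique molecular identifiers (UMIs, tags that let copies of 1 molecule be counted once), at least 1000 genes and at most 10% of UMIs from mitochondrial genes. There were 8707 such cells with 97157331 UMIs in the wild-type-labelled library and 10587 cells with 97644169 UMIs in the knockout-labelled library, with median depths of 10571 and 8637 UMIs. The libraries shared 27 cell barcodes. The knocked-out genes went against the labels: Sp5 stood at 109 CPM (UMIs scaled to counts per 1000000) in the wild-type-labelled library and 479 in the knockout-labelled library, and Sp8 at 20.8 and 40.1. A 3′ count can include transcripts of a disrupted gene, so this does not say which label is right, and every direction below is between libraries as labelled. All intervals are 95% and cover counting error only, not variation between cultures.

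Promoter sequences are shown for Trp53, Mdm2, Cdkn1a, Ccng1 and Bax, to place the p53 decamers they hold. Among the members, counts of Cdkn1a and Ccng1 had the highest correlations with those of Mdm2 across cells, with Trp53inp1 close behind. Those of Bax had almost none. RefSeq windows of 300 bases on GRCm38.p6, from 250 before to 50 after an annotated start, were available for 7 members (Trp53, Mdm2, Cdkn1a, Ccng1, Bbc3, Bax and Phlda3) and were searched on both strands for an exact match to the p53 consensus decamer. Trp53inp1, Pmaip1 and Zmat3 had none in the table used. The sequences below run 5′ to 3′ on the gene's strand up to 31 bases before the start, and the capitals mark the decamers. For Trp53 only 30 bases are shown, from 85 to 56 before the start, because the longer stretch overlaps an annotated exon.
Trp53 (chr11:69580274-69580303, + strand): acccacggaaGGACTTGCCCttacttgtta
Mdm2 (chr10:117710789-117711008, - strand): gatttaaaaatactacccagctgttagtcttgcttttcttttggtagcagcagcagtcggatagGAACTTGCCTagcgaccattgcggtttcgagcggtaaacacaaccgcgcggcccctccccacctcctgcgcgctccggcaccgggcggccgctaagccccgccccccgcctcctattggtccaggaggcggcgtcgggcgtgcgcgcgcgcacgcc
Cdkn1a (chr17:29090729-29090948, + strand): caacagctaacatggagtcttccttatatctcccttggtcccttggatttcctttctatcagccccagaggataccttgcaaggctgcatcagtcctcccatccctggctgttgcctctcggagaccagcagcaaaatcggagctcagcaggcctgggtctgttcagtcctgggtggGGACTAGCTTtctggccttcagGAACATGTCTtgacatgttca
Ccng1 (chr11:40755317-40755536, - strand): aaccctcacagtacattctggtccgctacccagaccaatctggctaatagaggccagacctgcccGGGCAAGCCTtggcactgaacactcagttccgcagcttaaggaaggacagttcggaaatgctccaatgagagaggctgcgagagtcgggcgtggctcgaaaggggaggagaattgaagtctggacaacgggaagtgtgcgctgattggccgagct
Bax (chr7:45466929-45467148, - strand): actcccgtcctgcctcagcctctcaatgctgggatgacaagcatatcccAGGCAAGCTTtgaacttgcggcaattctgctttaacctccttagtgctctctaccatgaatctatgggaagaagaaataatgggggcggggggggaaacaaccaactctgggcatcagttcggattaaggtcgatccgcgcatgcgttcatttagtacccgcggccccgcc

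The decamer was present in 5 of the 7 members with a window, against 8.36% of all 32817 windows and 9.55% of the 27025 symbols. It began 186 bases before the start in Mdm2, 185 in Ccng1, 201 in Bax and 75 in Trp53. Cdkn1a held 2 decamers, beginning 73 and 51 bases before an annotated start near the upstream end of the gene, base 29090976. The 7 members had 10 windows, so some had several annotated starts, and 5 of these windows held the decamer. Each distance is from the start of the window with the match. Which start these cells used was not tested, so a distance need not be that to a gene's main promoter. No exact decamer was found in the windows of Phlda3 and Bbc3. Another search, added after these results were seen, asked for 2 adjoining decamer cores with any bases around them. It matched 7.21% of windows, and among the members Cdkn1a (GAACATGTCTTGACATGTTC), Trp53 and Bbc3. A match describes letters in a short window and is not evidence of binding.

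Levels of the 10 genes were close in both libraries, and Trp53inp1 was the only member whose ratio passed the size used to call a gene. Among genes averaging 10 CPM or more, one was called higher or lower where its log2 ratio, double knockout label over wild-type label, was at least 0.25 or at most -0.25. Over all 7607 such genes, 3.13% were called higher and 4.67% lower. Of the 9 members that reached this level, 0 were higher and 1 was lower. The members' median log2 ratio was -0.08, against -0.02 for all 7607 genes.

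Trp53 (ENSMUSG00000059552, chr11:69580359-69591873, + strand) stood at 451 CPM in the wild-type-labelled library and 475 in the knockout-labelled library, a log2 ratio of 0.08 (0.06 to 0.09). Mdm2 (ENSMUSG00000020184, chr10:117688875-117710758, - strand), the ubiquitin ligase that restrains p53, stood at 135 and 122 CPM, a log2 ratio of -0.14 (-0.18 to -0.11). Both ratios were smaller than the size used for a call, and neither sign held in every cluster: within 1 cluster of cells, led by Irx3, Mdm2 stood at 155 and 159 CPM, and within another, led by Cdx2, Trp53 stood at 385 and 365 CPM.

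Among targets that slow the cell cycle or tune survival, Cdkn1a (ENSMUSG00000023067, chr17:29090976-29100727, + strand), which encodes the cyclin-dependent kinase inhibitor p21, stood at 361 and 360 CPM. Ccng1 (ENSMUSG00000020326, chr11:40748552-40755311, - strand), which encodes cyclin G1, stood at 394 and 373 CPM, a log2 ratio of -0.08 (-0.10 to -0.06). Phlda3 (ENSMUSG00000041801, chr1:135766119-135769136, + strand), an inhibitor of Akt, stood at 166 and 162 CPM. These 3 genes differed between the libraries by log2 ratios no larger than that of Ccng1. Zmat3 (ENSMUSG00000027663, chr3:32334792-32366014, - strand), which encodes an RNA-binding protein, stood at 123 and 116 CPM, a log2 ratio of -0.09 (-0.12 to -0.05). Trp53inp1 (ENSMUSG00000028211, chr4:11156431-11174379, + strand), a nuclear stress protein that acts with p53, stood at 99.3 and 81.8 CPM, a log2 ratio of -0.28 (-0.32 to -0.24). Within the largest clusters of cells its ratio was -0.25 in cluster 0, -0.11 in cluster 1 and -0.35 in cluster 2, and with every cluster given the same weight in both libraries it was -0.21, short of the call.

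Among the cell death genes, Bbc3 (ENSMUSG00000002083, chr7:16308393-16318205, + strand), which encodes the BH3-only protein Puma, stood at 56.2 and 51.5 CPM, a log2 ratio of -0.13 (-0.18 to -0.07). Bax (ENSMUSG00000003873, chr7:45461697-45466898, - strand), the pore-forming effector of mitochondrial cell death, stood at 680 and 677 CPM. Pmaip1 (ENSMUSG00000024521), which encodes the BH3-only protein Noxa, stood at 7.42 and 7.71 CPM from 721 and 753 UMIs, with an interval of the log2 ratio from -0.09 to 0.20, and did not reach the mean CPM of 10. Bax overlaps the annotated gene Gm45808 on its own strand and Cdkn1a lies opposite AC167363.2, so their counts are less certain. Whether counting used strand is not given in the sources used here.

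**Figure D1:**
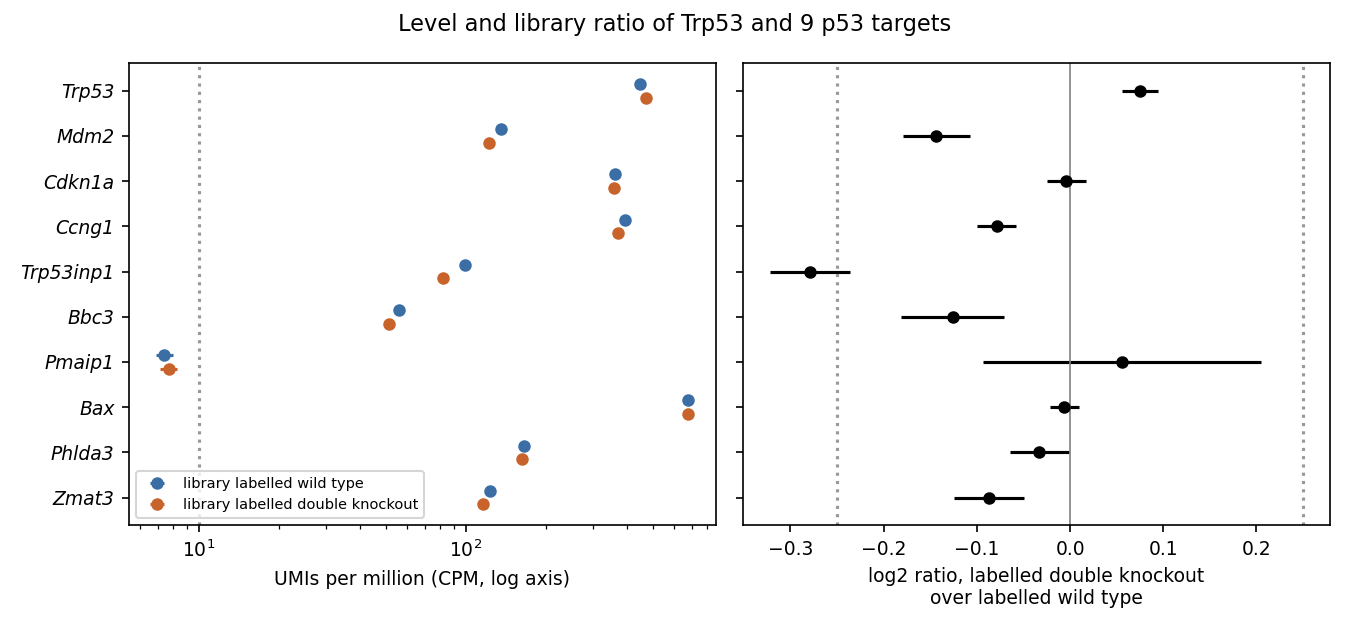
Level of each gene in CPM on a log axis (left; blue, wild-type-labelled library; orange, knockout-labelled library; dotted line, the mean CPM of 10) and log2 ratio of the libraries (right; dotted lines, 0.25 either way). Points carry 95% counting intervals. On the right only Trp53inp1, at -0.28, lies past a dotted line, and on the left only Pmaip1 lies below the mean CPM of 10. Levels of different genes are not comparable in 3′ counts.

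Detection depended on depth, so cells were also thinned to 4000 UMIs each, which left out 258 and 358 shallower cells and kept 8449 and 10229. In thinned cells Trp53 had a UMI in 82.4% (81.6 to 83.3) and 84.5% (83.8 to 85.2) of cells, and Bax in 93.2% and 93.0%. Cdkn1a was seen in 69.6% and 69.1%, Ccng1 in 76.2% and 74.5%, Phlda3 in 47.1% and 46.4%, Zmat3 in 38.6% and 37.6%, Mdm2 in 36.8% and 35.4%. The shares were lower for Trp53inp1, at 30.2% and 25.9%, Bbc3, at 20.3% and 18.6%, and Pmaip1, at 2.65% and 2.78%. Without thinning they ran from 6.27% for Pmaip1 to 99.1% for Bax in the wild-type-labelled library and from 5.32% to 99.02% in the other. All 10 genes were also present in near-empty barcodes, those with fewer than 100 UMIs, which hold free RNA and debris. There Trp53 stood at 343 and 369 CPM, Cdkn1a at 188 and 203, Ccng1 at 323 and 315, Mdm2 at 137 and 121, Bax at 678 and 672 and Pmaip1 at 10.1 and 11.6. How much of the UMIs in cells came from free RNA was not measured.

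The targets were found together in a cell somewhat more often than independent detection would give. A thinned cell had on average 4.15 (SD 1.38) of the 9 target genes in the wild-type-labelled library and 4.03 (SD 1.37) in the knockout-labelled library. The variance of that number was 1.22 times the variance that independent detection of the 9 genes would give, in both libraries. Cells with 8 or 9 targets numbered 47 and 42, where the products of the shares give 22.3 and 19.7. Cells with 2 or fewer targets numbered 969 and 1331, where the products give 753 and 1060. The same values for other sets of 9 genes were not worked out, so these have no background. The part of differences between clusters or phases in these counts was not tested.

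The highest correlations between members were those of Mdm2. Mdm2 and Trp53inp1 were both present in 1083 cells of the wild-type-labelled library, 1.15 times the product of their shares, and in 1059 cells of the other, 1.13 times. The Pearson correlation of thinned counts between Mdm2 and Cdkn1a was 0.14 and 0.12, between Mdm2 and Ccng1 0.13 and 0.14, between Mdm2 and Trp53inp1 0.13 and 0.11, and between Mdm2 and Phlda3 0.10 and 0.08. All are weak correlations over 8449 and 10229 cells of 1 library each, at equal depth, and are given as a description of sparse counts. Ranked among 7606 genes by their correlation with Mdm2, Cdkn1a was at place 5 and 4, Ccng1 at 7 and 2, Trp53inp1 at 8 and 9, and Phlda3 at 15 and 17. Zmat3 was at place 98 and 70 and Bbc3 at 106 and 40. Trp53 itself was at 291 and 344 and Bax at 1901 and 2217.

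Of the 36 pairs of targets, 28 in each library were seen together more often than the product of shares, with a median of 1.02 times. The same share over pairs of other genes was not worked out, so this count has no background. Bax, present in 93.2% and 93.0% of thinned cells, leaves its pairs little room to differ from 1, and Pmaip1, present in 2.65% and 2.78%, gives few cells to count. Bax had a correlation of 0.00 and 0.01 with the sum of the other 8 targets, and Pmaip1 -0.02 and -0.01. Bbc3 and Pmaip1, both BH3-only genes, were found together in 45 and 49 cells, where the product of shares gives 45.4 and 52.8.

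**Figure D2:**
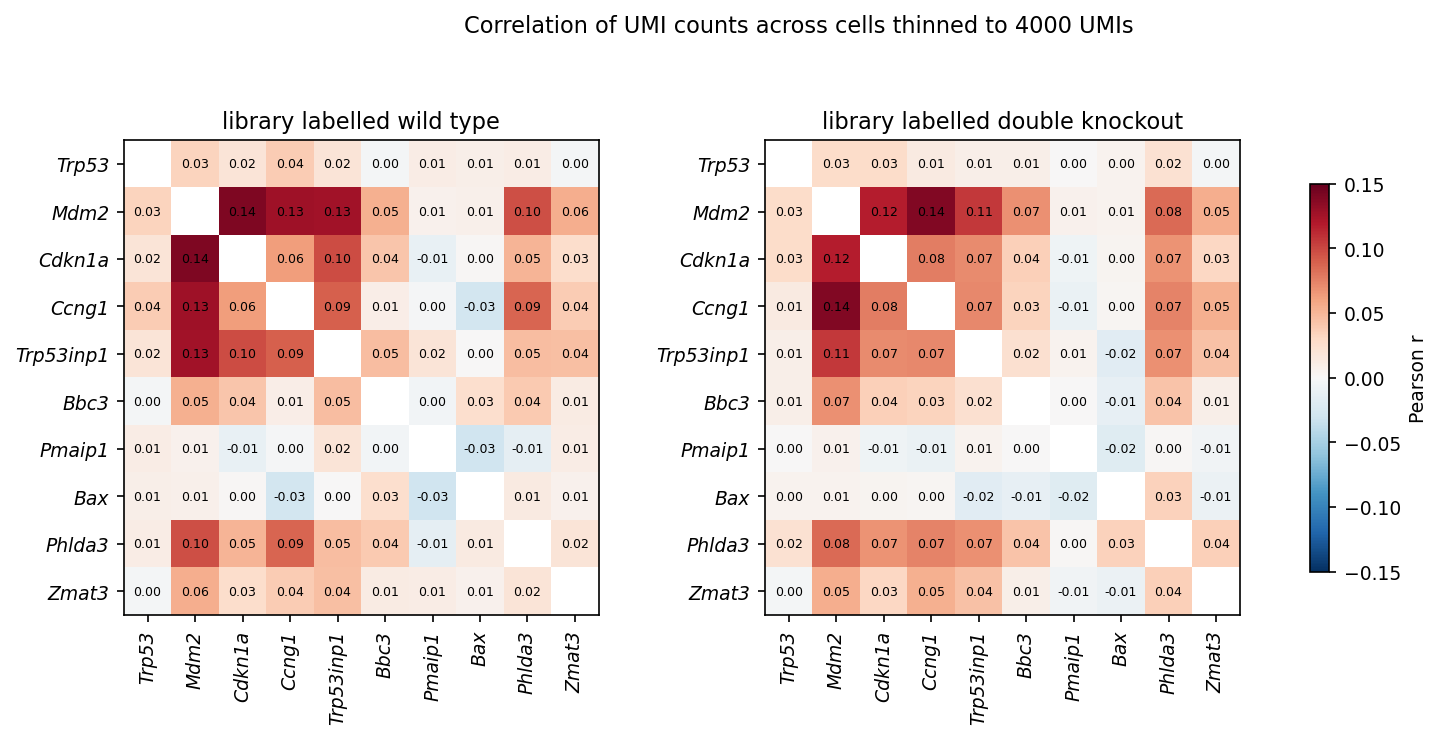
Pearson r of thinned UMI counts across cells for every pair of the 10 genes, in the wild-type-labelled library (left, 8449 cells) and the knockout-labelled library (right, 10229 cells). Colour runs from -0.15 (blue) to 0.15 (red); the Mdm2 row is reddest at Cdkn1a, Ccng1 and Trp53inp1, and the Bax, Pmaip1 and Trp53 rows are close to 0.

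Each member was also set against the sum of the other 8 targets. Mdm2 had the highest correlation, 0.20 and 0.18, and 0 of the 7598 genes that are no members exceeded it in either library. Trp53inp1 had 0.15 and 0.11, Cdkn1a 0.12 and 0.12, Phlda3 0.11 and 0.13, and Ccng1 0.11 and 0.13; between 1 and 6 other genes exceeded each of these. Bbc3, at 0.07 and 0.06, was exceeded by 64 and 87 genes, and Zmat3, at 0.06 and 0.06, by 86 and 60. Trp53 had 0.04 and 0.03 with the sum of its 9 targets, exceeded by 2.91% and 3.66% of genes.

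The 5 other genes most like the summed targets across cells were Btg2 (r 0.20 and 0.19), Ddit4 (0.16 and 0.15), Plk2 (0.15 and 0.13), Sdc4 (0.14 and 0.13) and Cald1 (0.13 and 0.12). Btg2, an antiproliferative gene, and Plk2, a kinase gene, are themselves p53 targets, and Ddit4 encodes an inhibitor of mTOR signalling. The 99th percentile over genes was 0.07 and 0.06. Mitochondrial, ribosomal protein, predicted and clone-named genes were left out of the ranking of these 5 genes and of the next one. Among the remaining genes that are no members, the one most like a single member was Btg2 for Mdm2 (0.19 and 0.18), Ccng1 (0.13 and 0.11) and Bbc3 (0.06 and 0.05), Fth1 for Cdkn1a (0.09 and 0.10) and Ddit4 for Phlda3 (0.08 and 0.08). It was Malat1, a nuclear RNA, for Trp53inp1 (0.13 and 0.10), Zmat3 (0.06 and 0.06) and Pmaip1 (0.06 and 0.07), Ppia for Trp53 (0.07 and 0.05) and Psmb2 for Bax (0.04 and 0.05). With no gene left out, the highest r was 0.099 and 0.074 for Pmaip1 and 0.062 and 0.053 for Bax. At the other end of the scale the counts of H2afz, a histone variant gene, had -0.11 and -0.11 with the summed targets.

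Cells with more Mdm2 UMIs also held more of most other targets. Thinned cells were split by their Mdm2 count: 5339 and 6604 cells had 0 UMIs, 2118 and 2581 had 1, 637 and 722 had 2, and 355 and 322 had 3 or more. Cdkn1a stood at 336, 360, 478 and 549 CPM from the lowest to the highest class in the wild-type-labelled library and at 340, 370, 465 and 524 in the knockout-labelled library. Ccng1 stood at 370, 415, 479 and 538 CPM, and at 349, 405, 462 and 540. Both genes were higher at every step in both libraries, with the largest step of Cdkn1a between 1 and 2 Mdm2 UMIs. Trp53inp1 stood at 86.8, 106, 135 and 175 CPM, and at 74.2, 83.1, 106 and 156. Phlda3 stood at 157, 180, 197 and 249 CPM, and at 154, 183, 203 and 225.

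Between cells with 2 or more Mdm2 UMIs and cells with 0, 8.65% of 7606 genes were called higher in the wild-type-labelled library and 8.82% in the knockout-labelled library. Of the 8 members with a mean CPM of at least 10, Mdm2 left out, 6 were called higher in each library and 0 lower, where 8.26% and 7.34% of genes were lower: Cdkn1a, Ccng1, Trp53inp1, Bbc3, Phlda3 and Zmat3. The log2 ratio was 0.78 (0.65 to 0.92) and 0.71 (0.56 to 0.85) for Trp53inp1, 0.58 (0.51 to 0.66) and 0.51 (0.44 to 0.58) for Cdkn1a, and 0.43 and 0.48 for Ccng1. It was 0.45 and 0.68 for Bbc3, 0.46 and 0.44 for Phlda3, and 0.31 and 0.33 for Zmat3. Trp53, at 0.11 and 0.09, and Bax, at 0.02 and 0.01, stayed short of a call. Pmaip1 was at 0.27 (-0.32 to 0.80) and 0.02 (-0.56 to 0.53), which its few UMIs cannot resolve.

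The same split within single clusters gave Cdkn1a log2 ratios of 0.61 and 0.52 in cluster 0, 0.59 and 0.49 in cluster 1, and 0.65 and 0.53 in cluster 2. Trp53inp1 gave 0.66 and 0.52, 0.46 and 0.54, and 1.46 and 1.28. Zmat3 fell short of a call in 4 of these 6 splits, at 0.17 in cluster 1 of both libraries, at 0.21 in cluster 0 of the wild-type-labelled library and at 0.18 in cluster 2 of the other. Bbc3 did so in cluster 0 of the wild-type-labelled library, at 0.23 (-0.19 to 0.62). Bax stayed between -0.07 and 0.14 in these 3 clusters.

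**Figure D3:**
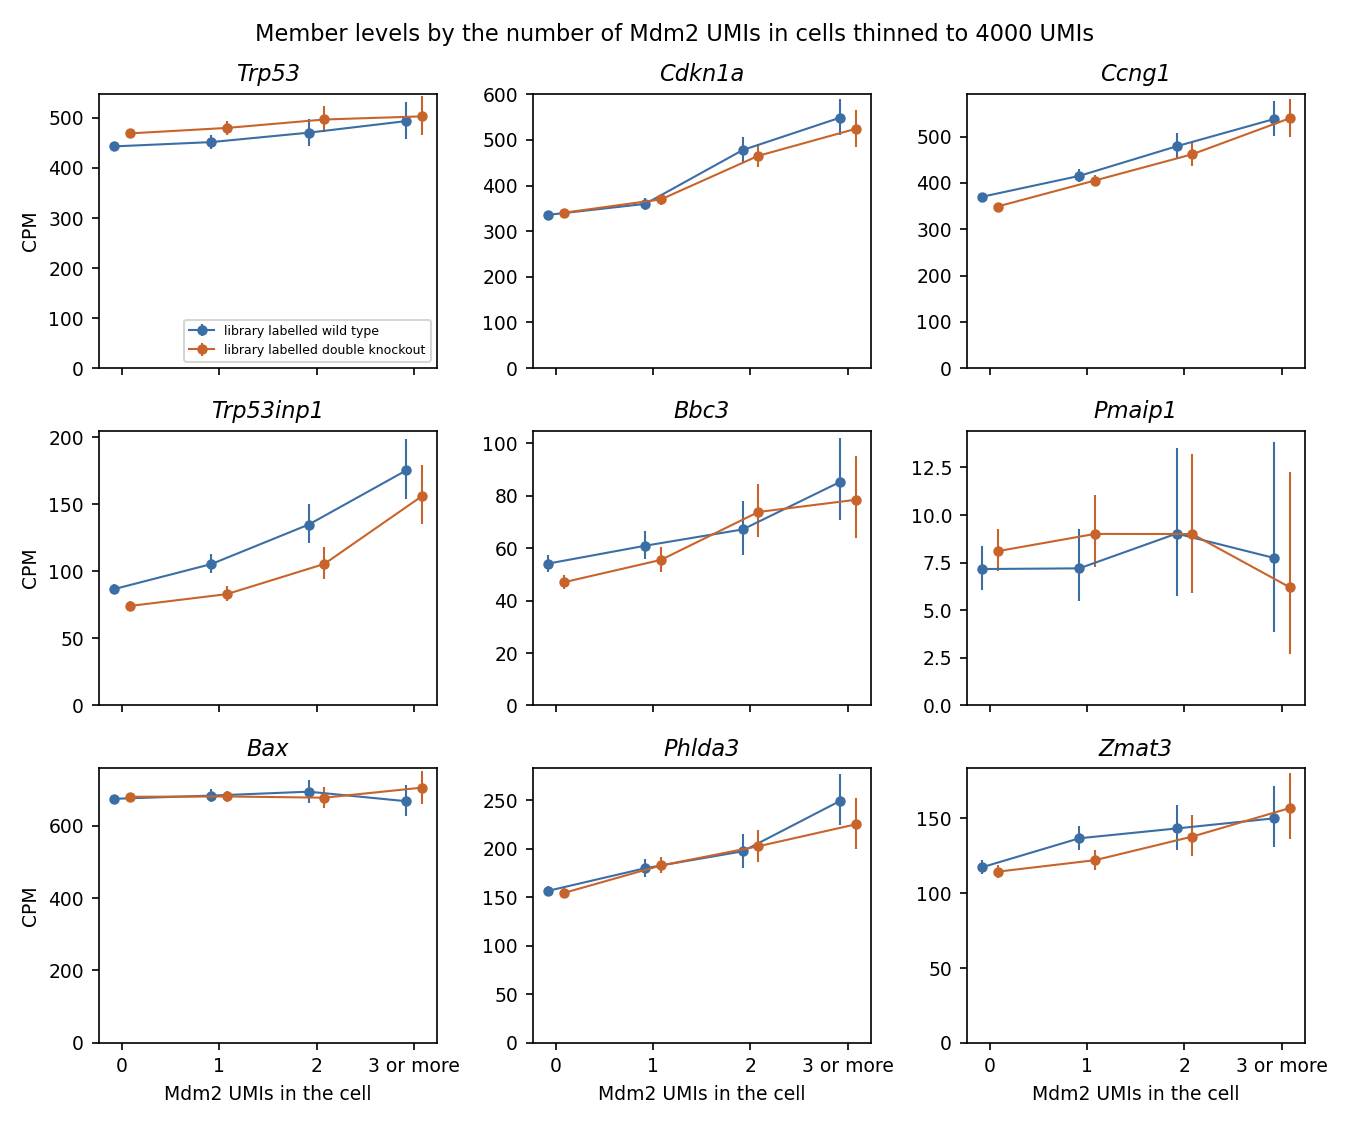
CPM of the other 9 genes in thinned cells with 0, 1, 2 or 3 or more Mdm2 UMIs (blue, wild-type-labelled library; orange, knockout-labelled library; bars, 95% counting intervals; each axis starts at 0). Cdkn1a, Ccng1, Trp53inp1 and Phlda3 step up along the axis, Trp53 and Bax stay nearly level, and Pmaip1 has wide intervals.

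Clusters of cells were made jointly for both libraries with the 10 genes left out, and 8 were found. Named from marker lists, cluster 0 was primitive streak-like (led by Fgf8, Gsc, Eomes and Mixl1; 2753 and 6170 cells), cluster 4 naive pluripotent-like (303 and 332), cluster 5 neural-like (275 and 258) and cluster 7 extraembryonic endoderm-like (18 and 21). Cluster 1 (led by Irx3 and Gbx2; 3525 and 2856 cells), cluster 2 (led by Cdx2 and Nfib; 1471 and 516), cluster 3 (led by Rps26; 324 and 355) and cluster 6 (led by Ddit3; 38 and 79) stayed unnamed. Cluster 3 had median depths of 3673 and 3226 UMIs. Its mitochondrial share was 0.23% in both libraries, and that of cluster 6 was 0.21% and 0.50%, against medians of 3.81% and 4.07% over all cells. Since each library is 1 culture, cluster sizes were not compared.

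In the Ddit3-led cluster the stress gene Ddit3 stood at 59.7 and 143 CPM against 5.62 and 5.56 in other cells. Of all clusters, this one held the highest levels of Mdm2, Pmaip1, Trp53inp1 and Bbc3 in both libraries. Mdm2 stood there at 385 CPM (318 to 461) and 274 CPM (233 to 320), against 134 and 121 in the other cells. Pmaip1 stood at 103 CPM (69.8 to 146) and 119 CPM (92.2 to 150), against 7.12 and 7.06, which is 14.7 and 16.9 times. Its level in the other 7 clusters ran from 2.41 to 17.4 CPM, and no other member differed as much between this cluster and the other cells. Trp53inp1 stood at 212 and 141 CPM against 98.9 and 81.5, and Bbc3 at 96.2 and 110 CPM against 56.0 and 51.1. Trp53, at 494 and 428 CPM against 450 and 475, and Bax, at 633 and 649 against 680 and 677, had intervals of the log2 ratio that included 0.

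This cluster differed from the rest at many genes: 31.3% and 27.3% of all 7607 were called higher, and 6 and 4 of the 9 members. A further 38.1% and 36.2% of genes were called lower, and 0 members. Cdkn1a was not among them, at 401 and 360 CPM against 361 and 360. Ccng1 and Zmat3 were called only in the wild-type-labelled library, and a difference between the libraries was not tested. Of 12 other p53 targets of arrest and repair, 11 and 7 were called higher in the cluster, and of 10 genes of the ATF4 stress pathway, 7 and 8 were. Of 8 other cell death targets 4 and 5 were called higher, of 9 targets of other roles 4 and 5, with medians of -0.04 and 0.28, and of 14 regulators 6 and 6. Of 7 Bcl2 family genes 2 and 2 were called higher and 4 and 3 lower, with medians of -0.36 and -0.16. Unlike the members, genes of these lists were not left out of the clustering. Their levels could help define the cluster, so these counts are not independent of how it was found. The part of the low mitochondrial share or of the small number of cells in these values was not tested.

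Over the other clusters each member had its own order. In cluster 3 Trp53inp1 stood at 49.9 and 22.5 CPM and Zmat3 at 44.5 and 43.4, their lowest levels, whereas Bax was at its highest, 802 and 837 CPM. Between the most populous clusters 0 and 1, Mdm2 stood at 121 against 155 CPM in the wild-type-labelled library and at 106 against 159 in the other. Trp53inp1 stood at 85.0 against 115 CPM and at 71.4 against 107, and Phlda3 at 154 against 190 and at 150 against 197. Mdm2, Trp53inp1 and Phlda3 were therefore higher in the Irx3-led cells than in the primitive streak-like cells of both libraries. Cdkn1a had no such order, with 390 against 346 CPM and 356 against 361; it was highest in the naive pluripotent-like cells, at 490 and 475 CPM, and in the extraembryonic endoderm-like cells, at 491 and 463. Trp53 was highest in the naive pluripotent-like cells, at 515 and 549 CPM, and lowest in the extraembryonic endoderm-like cells, at 219 (160 to 293) and 250 (188 to 326).

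**Figure D4:**
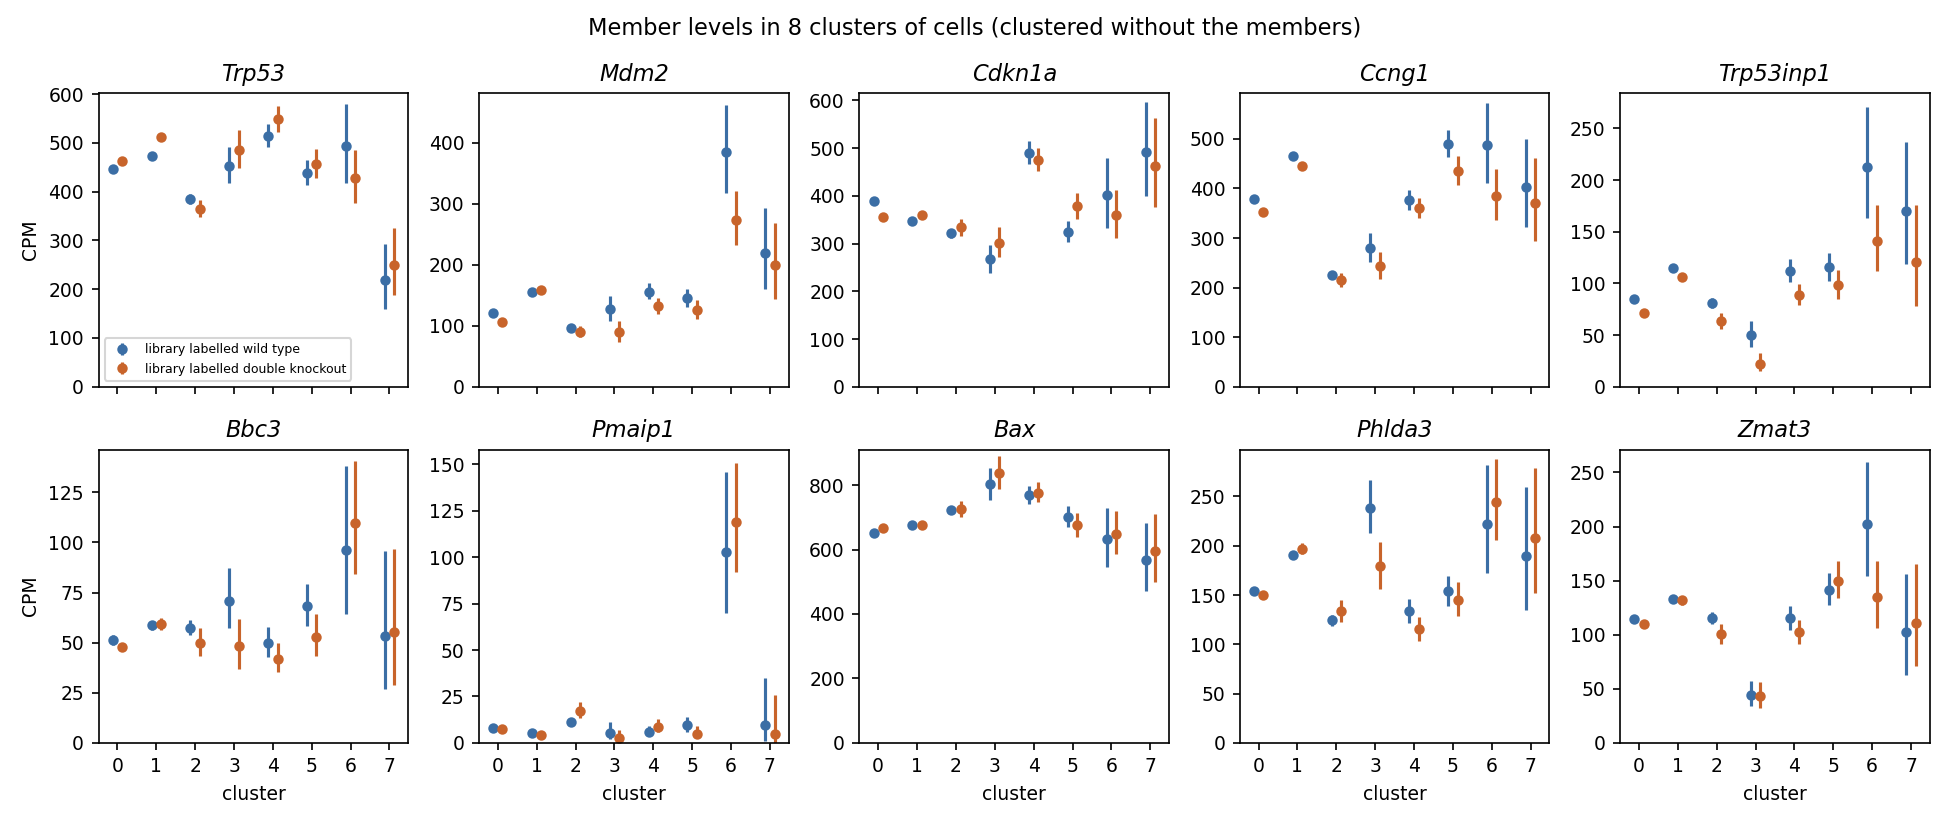
CPM of each gene in the 8 clusters (0 primitive streak-like, 1 led by Irx3, 2 led by Cdx2, 3 led by Rps26, 4 naive pluripotent-like, 5 neural-like, 6 led by Ddit3, 7 extraembryonic endoderm-like; blue, wild-type-labelled library; orange, knockout-labelled library; bars, 95% counting intervals). Mdm2, Trp53inp1, Bbc3 and Pmaip1 peak in cluster 6, Ccng1 is lowest in cluster 2, and Trp53 is lowest in cluster 7.

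Cells were also placed in a cell cycle phase by phase gene scores. Most fell in S (3953 and 4477) or G2/M (4377 and 5592) and few in G1 (119 and 160), where median depth was also lower, 7161 and 6486 UMIs against 11856 and 9721 in G2/M. Mdm2 stood at 225 CPM in G1, 146 in S and 124 in G2/M in the wild-type-labelled library, and at 216, 137 and 110 in the knockout-labelled library. Trp53inp1 stood at 134 CPM in G1 against 102 in G2/M, and at 134 against 81.2. Cdkn1a, the inhibitor of the G1 kinases, stood at 365 against 347 CPM, and at 471 against 340, beyond counting error in the knockout-labelled library only, and the difference between libraries was not tested. Trp53 stood at 372 CPM in G1 against 440 in G2/M, and at 461 against 463. Phlda3 stood at 157 against 165 CPM, and at 186 against 159, and Bax at 695 against 691, and at 654 against 680, so not every member was higher in G1. The part of depth and of the phase calls in these values was not tested.

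Trp53 and Ccng1 both lie on chromosome 11, and some cells had low expression along that whole chromosome. Leaving the members out, 1504 cells of the wild-type-labelled library and 599 of the other had a chromosome 11 share of at most 0.8 times the median, and 6729 and 9461 had at least 0.9 times. In the low cells the 662 other chromosome 11 genes had a median of 0.70 and 0.69 times their level in the remaining cells, as the split requires, and genes of other chromosomes 1.04 and 1.03 times. Trp53 stood at 379 against 465 CPM, 0.81 times, and at 368 against 480 CPM, 0.77 times. Ccng1 stood at 221 against 429 CPM, 0.51 times, and at 218 against 382 CPM, 0.57 times. Both genes were thus lower in these cells, Ccng1 by more than most of its chromosome, with 19 and 66 of the 662 genes below it, and Trp53 by less, with 552 and 514 below it.

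Between these groups 17.7% and 16.7% of all genes were called lower, and 4 and 2 of the 9 members. A further 14.7% and 14.6% were called higher, and 0 of the 9. Besides Trp53 and Ccng1, the members called lower were Mdm2, at 107 against 140 CPM, and Phlda3, at 127 against 174 CPM, in the wild-type-labelled library. Pmaip1, below the mean CPM of 10, was not among the 9. It was higher in the low cells of both libraries, at 12.0 against 6.61 CPM, 1.81 times, and at 20.6 against 6.83 CPM, 3.03 times. In the Ddit3-led cluster, where Pmaip1 was highest, 29.7% of the cells scored for this split were low. The part of that cluster in these Pmaip1 ratios was not tested. Low cells made up 92.1% of cluster 2, so the split and that cluster can hardly be told apart. Within cluster 1, which held 69 and 52 low cells, Ccng1 was at 0.65 and 0.58 times, with 222 and 140 of the 662 genes below it, and Trp53 at 0.86 and 0.76 times, with 509 and 364 below it. Mdm2 was there at 1.53 and 1.10 times, so its direction over all cells did not hold within that cluster. No member lies on chromosome 6, in which 1795 and 1869 cells were low. Of these, 1133 and 238 belonged to cluster 2. The splits by chromosome 6 and chromosome 11 therefore shared cells, most of all in the wild-type-labelled library, and are not separate results. The cells low in chromosome 6 had 3 and 2 of the 9 members called lower, against 15.1% and 10.5% of genes. They had 0 called higher, against 9.25% and 5.22%. Pmaip1, again not among the 9, was there at 1.35 and 0.87 times. Ccng1 was among the lower ones in both libraries, at 0.70 and 0.76 times in cluster 0 and at 0.80 and 0.79 times in cluster 1. In cluster 2 it was at 0.79 times in the wild-type-labelled library, and at 1.04 times in the other, with an interval of the log2 ratio from -0.13 to 0.26.

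**Figure D5:**
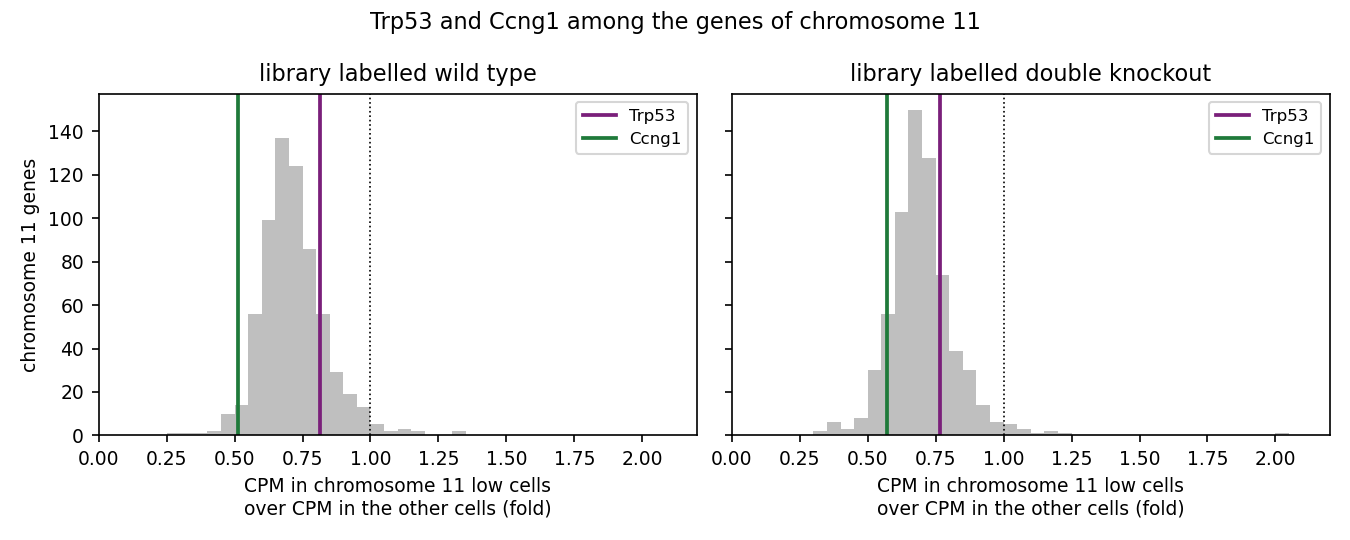
Histogram of 662 chromosome 11 genes by their CPM in cells low in chromosome 11 over their CPM in the other cells, in the wild-type-labelled library (left) and the knockout-labelled library (right). Vertical lines mark Trp53 (purple, 0.81 and 0.77) and Ccng1 (green, 0.51 and 0.57), and the dotted line a ratio of 1.

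The wider p53 pathway was followed through gene lists. For comparison, 3.13% of all 7607 genes were called higher and 4.67% lower, with a median log2 ratio of -0.02. Of 14 regulators of p53, 0 were called higher and 2 lower under the double knockout label, with a median log2 ratio of -0.15; the largest differences were those of Cdkn2a (13.3 and 10.1 CPM, log2 ratio -0.40), Chek2 (33.3 and 28.0, -0.25) and Ep300 (54.8 and 46.4, -0.24). Of 12 other targets of arrest and repair, 1 was higher and 4 lower, with a median of -0.16. Plk2 stood at 74.0 and 56.1 CPM (-0.40) and Pml, a nuclear body gene, at 14.2 and 18.7 CPM (0.39). Btg2, of the genes ranked above the one most like the summed members, stood at 201 and 157 CPM (-0.36). Of 8 other cell death targets, 0 were higher and 1 lower, with a median of -0.12: Apaf1, the scaffold of the apoptosome, stood at 35.1 and 27.8 CPM (-0.33), Perp at 21.5 and 18.2 (-0.24) and Ei24 at 80.5 and 70.2 (-0.20). Of 9 other targets of metabolism and other roles, 1 was higher and 0 lower, with a median of 0.01; Ninj1 was at 0.38, Rap2b at -0.23 and Tigar at 0.20. Of 7 Bcl2 family genes 0 were called either way, with Bad at 0.10, Bcl2l1 at 0.07 and Bcl2l11 at -0.07.

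In single cells the correlation with the 9 summed members reached the 99th percentile of genes (1% of genes by definition) for 6 and 7 of 12 other targets of arrest and repair, for 3 and 3 of 8 cell death targets, and for 2 and 4 of 9 targets of other roles. It did so for 0 of 14 regulators and 0 of 7 Bcl2 family genes in both libraries. Sesn2 was on both the list of arrest and repair targets and that of ATF4 stress genes, and reached the percentile in neither library. Of 10 ATF4 stress genes, 1 reached it in each library, Ddit4, though 6 of them were called higher and 2 lower under the double knockout label, led by Chac1 (15.0 and 25.5 CPM, 0.77), Trib3 (8.82 and 13.7, 0.63) and Asns (98.0 and 152, 0.63). Of 8 immediate early genes, 2 reached the percentile in both libraries, Jun and Egr1, and 1 was higher and 2 lower, with Fosb at 0.31, Fos at -0.28 and Jun at -0.26, and of 4 heat shock genes 0 reached the percentile and 0 were called, with Hspa8 at 0.10, Hsph1 at -0.09 and Dnajb1 at 0.07. Markers of feeder fibroblasts summed to 6.72 and 6.36 CPM, those of extraembryonic endoderm to 12.3 and 10.3, and those of 2-cell-like cells to 0.010 and 0.11.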

How the data were processed

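Both libraries were made with 10x Genomics 3′ chemistry from pooled aggregates, per the labels. The values are raw UMI counts for each gene in each barcode, as the authors deposited them; the submitters' processing notes name STARsolo, STAR 2.7.9a, Seurat 5.1.0 and mm10, and the labels Cell Ranger 8.0.1. Median genes per cell (3275 and 2884) were below those in the labels (5333 and 5398), and the reason was not tested.

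Counts were summed over kept cells of each library and scaled to a total of 1000000 (CPM). Ratios used a pseudocount of 0.5 UMIs and the exact conditional interval of 2 Poisson sums; sums had exact Poisson and shares Clopper-Pearson intervals, all 95%. With 1 library per genotype no test was made. Thinning drew 4000 UMIs per cell without replacement. Clusters came from 2000 variable genes without the members, 30 components, 15 neighbours and Leiden resolution 0.5 (leidenalg 0.10.2, scanpy 1.11.5). A cluster was named for a class where that class alone had a marker among the 10 leading genes and at least 3 markers at 1.5 times their level elsewhere, and held 2 of the 10 leading genes or 1 of the first 3; the last condition was set after the clusters were seen. Doublets were scored against simulated ones and kept; 606 (6.96%) and 897 (8.47%) were marked, at 0.8% per 1000 cells, and left out in an alternative. Gene positions are from GENCODE M21, to which 32235 of the 32285 identifiers matched. The steps were tested on simulated data. Other scalings used edgeR 4.0.16 (TMM) and DESeq2 1.42.0.

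The genes named are all members, Sp5 and Sp8, the 3 genes of each pathway list with the largest absolute log2 ratio, the 5 genes most like the summed targets and the 1 most like each member (no members, mitochondrial, ribosomal protein or clone-named genes), and leading genes of clusters. H2afz was named after its value was seen. The members and lists were chosen with earlier results of these data known.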

Additional observations from a re-analysis of the deposited data

Results flagged for a closer look

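Barcodes with at least 2500 UMIs and over 10% mitochondrial UMIs were outside the cells described: 64 with 240974 UMIs in the wild-type-labelled library and 26 with 93633 UMIs in the knockout-labelled library. In these barcodes Mdm2 stood at 282 CPM (219 to 358) and 342 CPM (234 to 482), against 135 and 122 in the kept cells, a signal in data the comparisons did not use. Trp53inp1 stood at 195 CPM (143 to 259) in the wild-type-labelled library, against 99.3. In the other library it stood at 150 CPM (81.7 to 251) against 81.8, from 14 UMIs. Bax stood at 361 CPM (289 to 445) and 523 CPM (387 to 692), against 680 and 677, so not every member was higher in these barcodes. Cdkn1a stood at 315 CPM (248 to 395) and 406 CPM (287 to 557), with intervals that include its level in the kept cells.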

How the results depend on the processing

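No paired analysis was possible because each genotype has 1 library. The members' median log2 ratio of -0.08 lay between -0.05 and -0.09 under the scalings of edgeR (TMM) and DESeq2, without doublets, with a mitochondrial limit of 5%, a minimum of 5000 UMIs, thinning, equal cluster weights and without cells low in chromosome 11 or 6, and was 0.015 within cluster 1 alone. The 1 member called lower became 0 with equal cluster weights and within cluster 1. Genes called higher and lower, 238 and 355, became 707 and 1103 with a minimum mean CPM of 1, and 4131 and 5003 with none, since low counts give large ratios. The median of the ATF4 stress list (0.36) became 0.45 and that of the heat shock list (0.02) -0.060 under both of these minimums. The mean number of targets per cell (4.15 and 4.03) became 3.16 and 3.08 when thinned to 2500 UMIs and 6.02 and 5.53 without thinning, by construction. The correlation of Mdm2 with Cdkn1a (0.14 and 0.12) became 0.086 and 0.092 at 2500 UMIs, and 0.087 in cluster 2 of the knockout-labelled library. That of Mdm2 with the sum of the other targets (0.20 and 0.18) became 0.12 and 0.13 at 2500 UMIs, 0.18 without cells low in chromosome 11 or 6 (wild-type label), 0.17 in cluster 0 (wild-type label), 0.17 and 0.16 in cluster 1, and 0.11 in cluster 2 (double knockout label). In cells low in chromosome 11, cluster 1 alone gave log2 ratios of -0.22 for Trp53 and -0.63 for Ccng1 (wild-type label) in place of -0.30 and -0.96. Mdm2 turned there from -0.38 to 0.61 and from -0.23 to 0.14. The promoter search for paired decamer cores matched 3 members, where that for the exact decamer matched 5. Values of the Ddit3-led cluster stayed within their intervals at resolution 1.0 and without doublets. The cause of these shifts was not tested except where a setting's own construction gives it. Depth limits Pmaip1 most, at 721 and 753 UMIs, and intervals cover counting error only.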
